A study of Homo sapiens with 9 samples.

Results

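The genes described here are 31 genes of cholesterol synthesis, of the neighbouring fatty acid pathway and of the sterol regulatory element binding proteins (SREBPs) that control both. They were chosen by role, not by a measured value. A read pair was counted for a gene when its 5′ and its 3′ end lay on the strand of the gene and within 1 kb of its Gencode v44 body. The 31 genes are part of 22384 genes with at least 1 read pair, of which 12135 passed the filter on low counts and were tested, and all 31 passed it.

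K562 is an established human erythroleukemia line whose BCR-ABL1 fusion kinase is inhibited by imatinib. Cells of this 1 line received 1 μM imatinib or the DMSO vehicle for 24 h, with 2 libraries of each, so p-values measure the spread between 2 libraries of a group, and fewer cells of a kind and less RNA per cell cannot be told apart. The libraries were made by TIF-Seq2, which copies capped, polyadenylated RNA to full length and closes the cDNA to a circle, so that 1 read pair gives the start and the poly(A) site of 1 molecule. The question addressed here was how the amount, the promoters and the poly(A) sites of these genes compared between imatinib and DMSO.

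Cells make cholesterol from acetyl-CoA. The first steps lead to mevalonate and to the isoprenoids farnesyl and geranylgeranyl diphosphate, and the later steps join farnesyl units to squalene, close the rings to lanosterol and trim lanosterol to cholesterol. SREBPs are transcription factors made as precursors in the membrane of the endoplasmic reticulum. When sterols are low, the escort protein SCAP carries them to the Golgi, where proteases release the active part, and when sterols are high, INSIG proteins hold SCAP back. SREBP-2 is known mainly for the cholesterol genes and SREBP-1 for the fatty acid genes, and both bind sterol regulatory elements near promoters, often next to sites for NF-Y and SP1.

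The libraries held 3695520 and 5135829 read pairs for DMSO and 4263670 and 2263121 for imatinib. The 31 genes took 13170, 18836, 13840 and 8214 of them, which is from 0.325% to 0.367% of a library. Levels are given as CPM, the read pairs per 1000000 of the normalized library. Erythroid markers of K562, among them GATA1, TAL1, NFE2 and TFRC, were present, while the T cell, B cell and monocyte genes CD3E, MS4A1 and CD14 had no read pair, ALB had 1 to 2 and COL1A1 2 to 13. The epithelial marker EPCAM had 208 to 703 read pairs and is thus not a marker that K562 lacks. Among the erythroid markers KLF1, EPOR and LMO2 were called higher after imatinib, while GATA1, TAL1, NFE2 and TFRC were not called. Of all genes tested 8.69% were called higher. The part of these erythroid genes in the results was not tested.

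The promoters are shown first for 2 members that held a sterol regulatory element. The search covered both strands from 250 bases before to 50 bases after a start, for TCACNCCAC (the sterol regulatory element type), CCAAT (NF-Y), GGGCGG (SP1) and CACGTG (the E-box), and each motif may overlap another. The 160 bases before the annotated gene start are printed 5′ to 3′ on the strand of the gene, with every match to any of these motifs, on either strand, in capitals. HMGCS1 lies at chr5:43313513-43313672 on the minus strand and SREBF2 at chr22:41832945-41833104 on the plus strand (hg38).
HMGCS1: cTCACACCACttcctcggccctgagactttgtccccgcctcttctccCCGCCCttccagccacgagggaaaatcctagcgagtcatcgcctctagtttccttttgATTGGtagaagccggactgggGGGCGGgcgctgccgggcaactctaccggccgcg
SREBF2: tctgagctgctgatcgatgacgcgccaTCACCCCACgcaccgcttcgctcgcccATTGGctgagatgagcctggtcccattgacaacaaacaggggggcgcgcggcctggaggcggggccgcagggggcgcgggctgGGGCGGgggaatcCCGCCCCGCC
TM7SF2, bases -90 to -61: CCGCCCccgagcgccgATTGGctggtgtgc

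The TM7SF2 bases lie at chr11:65111782-65111811 on the plus strand and are counted from its most used start. They hold a CCAAT and a GGGCGG match on the opposite strand, and no TCACNCCAC match lay in the whole TM7SF2 window. The sterol regulatory element letters ended 151 bases before the annotated start in HMGCS1 and 125 in SREBF2, and in each of these promoters a CCAAT match lay downstream of them.

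With the annotated gene start as the reference, TCACNCCAC was found in 3 of the 31 promoters (9.68%) and in 1.33% of the 12135 promoters of the genes tested. With the most used start of these libraries it was found in 1 member (3.23%), SREBF2, against 1.24% of all. The most used start of HMGCS1, 43313412, lies downstream of its annotated start, 43313512, and the window moved with it. The HMGCS1 match then lay just beyond the upstream edge of the window and was not counted. It is still present upstream of the start used. CCAAT was found in 22 of 31 members (71.0%) at the most used start against 36.9% of all promoters, and in 19 (61.3%) against 37.2% at the annotated start. GGGCGG was common everywhere, in 25 members (80.6%) against 66.6% of all. CACGTG was found in 5 members (16.1%), FADS2, INSIG1, LSS, SC5D and SCAP, against 9.81% of all. Where the most used start lies inside the gene, as in ACLY, ACACA, FASN and SCD, this window is not the annotated promoter. The FADS2 window lies at 61792934, and 94.2% of the FADS2 read pairs also count for another gene, FEN1. Its CACGTG match therefore cannot be assigned to FADS2 alone. These are matches of letters, and they do not say which factor was bound.

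Of the 31 genes 1 was called higher after imatinib and none was called lower. TM7SF2, a sterol reductase of the endoplasmic reticulum that acts on the ring system after lanosterol has been demethylated, was higher in both imatinib libraries, and the other 30 genes did not pass the test at an adjusted p of 0.05 (edgeR's quasi-likelihood test, adjusted by Benjamini-Hochberg over all genes tested). Among all genes tested, 8.69% were called higher and 6.15% lower, so the 1 call among 31 members was fewer than those shares would give. The median log2 fold change of the members was -0.20, against 0.03 over all genes tested, with 21 members below 0 and 10 above. An unadjusted p under 0.05 was found for 4 members, 2 of them higher, and for 31.2% of all genes. DESeq2 called TM7SF2 higher and 1 member, SCD, lower. In 5 members both imatinib libraries lay above both DMSO libraries, which held for 31% of all genes, and in 11 both lay below, which held for 29.1%.

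**Figure D1:**
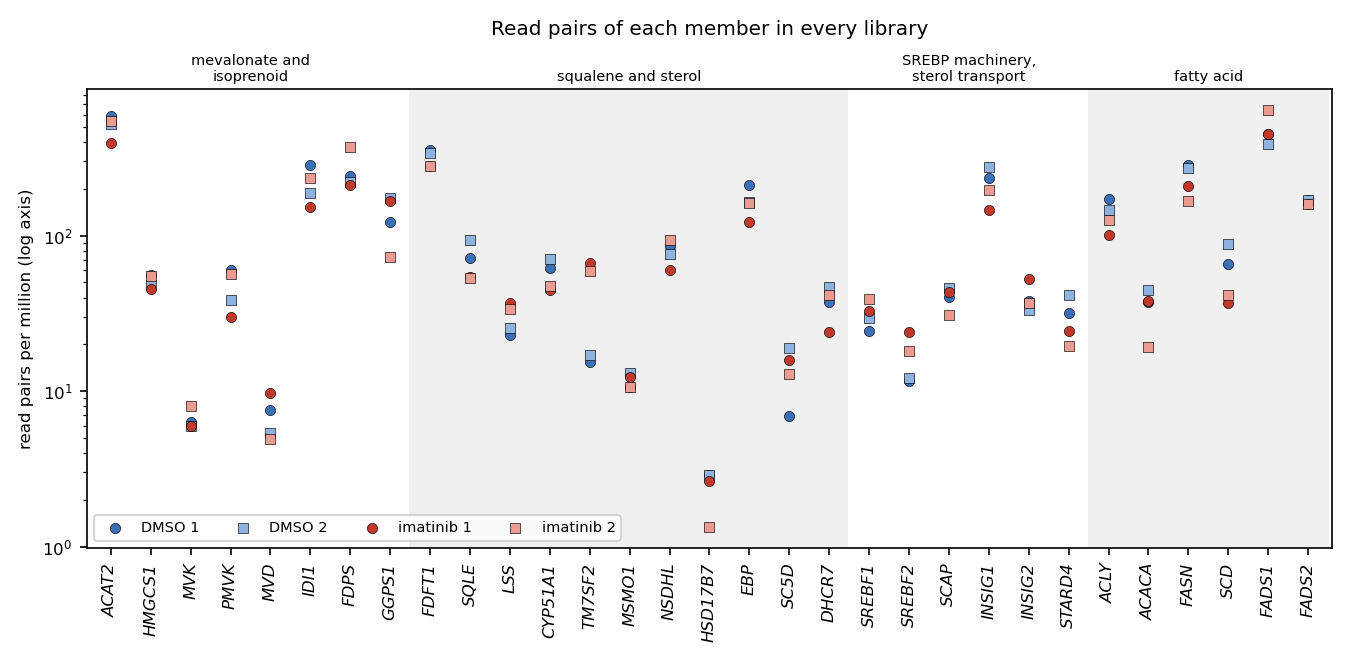
Level in CPM (log axis) of each of the 31 genes in the 2 DMSO (blue) and the 2 imatinib (red) libraries, in the order of the pathway. TM7SF2 stands out with 66.8 and 59.6 in imatinib and 15.3 and 17.1 in DMSO. In 5 genes, TM7SF2 among them, both imatinib points lie above both DMSO points. In 11 genes both lie below, and in the rest the points of the conditions mix.

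The genes of the mevalonate and isoprenoid steps gave no call. ACAT2 makes acetoacetyl-CoA and HMGCS1 condenses it with acetyl-CoA, MVK, PMVK and MVD convert mevalonate to isopentenyl diphosphate, IDI1 isomerizes it, and FDPS and GGPS1 build farnesyl and geranylgeranyl diphosphate. Of these 8 genes 3 had a log2 fold change above 0 and 5 below, with a median of -0.13, and in none were the libraries of the conditions separated. FDPS had the highest value of the group, with 242 and 221 CPM in DMSO and 211 and 372 in imatinib. The imatinib libraries of FDPS thus lay on both sides of the DMSO libraries (log2 fold change 0.33, SE 0.308, edgeR adjusted p 0.503), and without imatinib library 2 the value was -0.16.

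GGPS1 had the lowest value of the group. Its level was 122 and 174 CPM in DMSO and 167 and 73.3 in imatinib, so that imatinib library 2 alone lay below the DMSO libraries (log2 fold change -0.29, SE 0.389, edgeR adjusted p 0.657). Without imatinib library 1 it was lower still and passed the test (adjusted p 0.0129), and without imatinib library 2 it was 0.15, and over all its alternatives the adjusted p ranged from 0.0129 to 0.986. The direction of GGPS1 therefore rested on which imatinib library was kept. HMGCS1, the first enzyme specific to the branch and the holder of a sterol regulatory element above, had 56.0 and 48.3 CPM in DMSO and 45.1 and 54.7 in imatinib, a log2 fold change of -0.07 (SE 0.284). The remaining members of the group, ACAT2, MVK, PMVK, MVD and IDI1, had log2 fold changes from -0.28 to 0.26. MVK and MVD were the least covered of them, with 11 to 44 read pairs in a library.

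Among the 11 genes of the squalene and sterol steps, TM7SF2 rose and 10 did not pass the test. TM7SF2 (ENSG00000149809.17, chr11:65111845-65116384, plus strand) had 53 and 89 read pairs in DMSO and 302 and 134 in imatinib. As CPM these are 15.3 and 17.1 in DMSO (16.2 ± 1.28, SD, n = 2) and 66.8 and 59.6 in imatinib (63.2 ± 5.11, SD, n = 2). The groups did not overlap and the level was 3.89 times as high after imatinib (log2 fold change 1.96, SE 0.295, edgeR adjusted p 0.00484). The enzyme shares its activity with the lamin B receptor, a protein of the inner nuclear membrane. Of the TM7SF2 read pairs 1.21% also met the counting rule of another gene, and the call held without them.

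SQLE, the squalene epoxidase and a rate-limiting enzyme of the late pathway, had the lowest value of these 11 genes. It had 71.9 and 93.8 CPM in DMSO and 54.0 and 53.8 in imatinib. Both imatinib libraries lay below both DMSO libraries, but the difference did not pass the test (log2 fold change -0.62, SE 0.281, edgeR adjusted p 0.167). CYP51A1, the lanosterol demethylase whose product TM7SF2 reduces, had a like value, with 61.5 and 70.4 in DMSO and 44.9 and 47.1 in imatinib (log2 fold change -0.52, adjusted p 0.231). LSS, which closes squalene epoxide to lanosterol, lay on the other side, with 22.8 and 25.4 in DMSO and 36.9 and 33.8 in imatinib (log2 fold change 0.55, adjusted p 0.230). Neighbouring steps of the pathway thus had values of opposite sign, none of which passed the test except that of TM7SF2.

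The other members of the sterol branch had log2 fold changes from -0.42 to 0.14. FDFT1, the squalene synthase, EBP, a sterol isomerase, and HSD17B7, a ketosteroid reductase, had both imatinib libraries below both DMSO libraries. HSD17B7 rested on 3 to 15 read pairs in a library. MSMO1 and NSDHL, which take part in the removal of methyl groups, had values of -0.04 and -0.09. SC5D and DHCR7, of the last steps, had values of 0.14 and -0.39. The median of the 11 genes was -0.30.

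**Figure D2:**
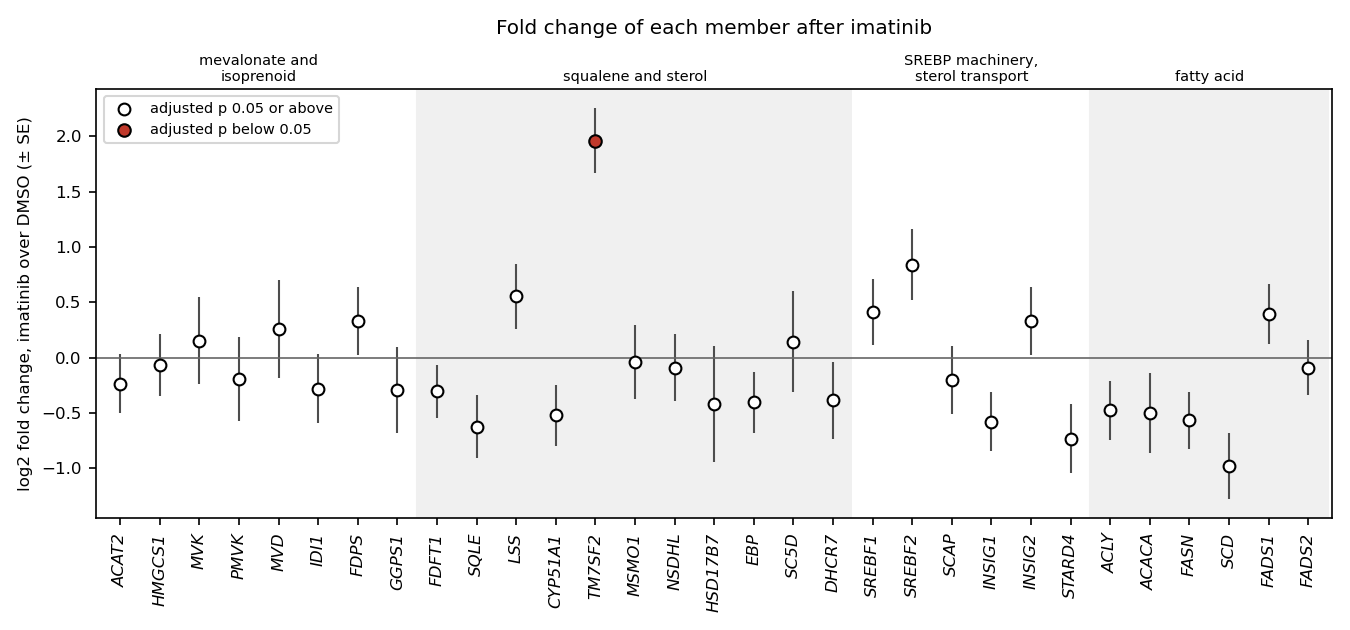
Log2 fold change of imatinib over DMSO with its standard error (bars) for each of the 31 genes, by role group. The filled point is TM7SF2 at 1.96, and the open points, which did not pass an adjusted p of 0.05, lie between -0.98 (SCD) and 0.84 (SREBF2).

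The genes of the SREBP machinery and of sterol transport gave no call and pointed both ways, 3 above 0 and 3 below, with a median of 0.06. SREBF2 (chr22:41833105-41907306, plus strand), which codes for SREBP-2, had the highest value, with 40 and 63 read pairs in DMSO and 108 and 41 in imatinib. As CPM these are 11.6 and 12.1 in DMSO and 23.9 and 18.2 in imatinib. The libraries were separated and the log2 fold change was 0.84 (SE 0.323), yet the edgeR adjusted p was 0.114, and without imatinib library 2 the gene passed the test with 0.98 (adjusted p 0.0238, against up to 0.441 in its other alternatives). SREBF1 (chr17:17810399-17837002, minus strand), which codes for SREBP-1, was also separated, with 24.3 and 29.6 in DMSO and 33.0 and 39.1 in imatinib (log2 fold change 0.41, adjusted p 0.382).

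STARD4, a cytosolic carrier of cholesterol, had the lowest value of the group. It had 31.8 and 41.5 CPM in DMSO and 24.3 and 19.6 in imatinib (log2 fold change -0.73, SE 0.311, edgeR adjusted p 0.146). INSIG1, a classic target of SREBP that feeds back on SCAP, had 236 and 274 in DMSO and 147 and 195 in imatinib (log2 fold change -0.58, adjusted p 0.174), and passed the test without imatinib library 2 (-0.82, adjusted p 0.0294, against up to 0.646 in its other alternatives). Both genes were lower in each imatinib library than in each DMSO library. INSIG2, its relative, had a value of 0.33 and SCAP one of -0.20, with overlapping libraries.

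Of the 6 genes of fatty acid synthesis and desaturation 5 had a value below 0, with a median of -0.49, and none was called. The 5 include FADS2 at -0.09, most of whose pairs also count for FEN1, and without the shared pairs its value was 0.94. SCD (chr10:100347233-100364826, plus strand), the stearoyl-CoA desaturase that makes oleate, had the lowest value of all 31 members, with 226 and 458 read pairs in DMSO and 166 and 93 in imatinib. As CPM these are 65.3 and 88.1 in DMSO and 36.7 and 41.3 in imatinib, with no overlap. The log2 fold change was -0.98 (SE 0.294) at an edgeR adjusted p of 0.0550, just short of the threshold. It passed with DESeq2 (-1.04, adjusted p 0.0415), without the filter on low counts (adjusted p 0.0155) and without imatinib library 2 (-1.09, adjusted p 0.00836), and the highest adjusted p over its alternatives was 0.439.

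FASN (chr17:82078338-82098294, minus strand), the fatty acid synthase, had 285 and 272 CPM in DMSO and 209 and 166 in imatinib (log2 fold change -0.57, edgeR adjusted p 0.166). ACLY, which supplies acetyl-CoA from citrate, had a value of -0.48 with separated libraries. ACACA (chr17:37084992-37406836, minus strand), the acetyl-CoA carboxylase that commits carbon to fatty acids, had 37.6 and 44.6 in DMSO and 38.0 and 19.1 in imatinib (-0.50). Only imatinib library 2 of ACACA lay below the DMSO libraries, and without imatinib library 1 its value was -1.09 and passed the test (adjusted p 0.0302, against up to 0.787 in its other alternatives). These 3 genes form the line from citrate to palmitate, and none of them passed the test.

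FADS1, a desaturase of polyunsaturated fatty acids, had the highest value of the group. It had 448 and 389 CPM in DMSO and 452 and 647 in imatinib (log2 fold change 0.39, SE 0.271, edgeR adjusted p 0.355). FADS2, the partner desaturase, could not be read from the counting rule. Of its 2559 read pairs 94.2% also counted for FEN1, a nuclease gene covered by the longest FADS2 model and its margin. The most used start was chr11 position 61792934 and the most used end 61797240, inside a FADS2 intron. At the canonical FADS2 start lay 0.0391% of the pairs. The value of -0.09 for FADS2 therefore rests mainly on pairs that also count for FEN1, and without the shared pairs it was 0.94 (adjusted p 0.113).

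In 3 other members the pairs were shared with longer coding gene models on the same strand. These took all read pairs of GGPS1 and EBP and 99.9% of those of CYP51A1, so these pairs cannot be assigned to the member alone. Of all genes tested, 16.1% shared at least 50% of their pairs in this way.

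Other genes of the pathway, outside the 31, were read from lists chosen by role. Of 32 such genes 30 were tested, none was called and the median log2 fold change was -0.18, and 4 had an unadjusted p under 0.05. Over all genes tested 8.69% were called higher, 6.15% were called lower and 31.2% had an unadjusted p under 0.05. MBTPS1 and MBTPS2, the proteases that release SREBP in the Golgi, had values of -0.41 and -0.83, and neither passed the test. The 12 acyl chain and lipid genes ranged from -1.13 for ME1, the malic enzyme that supplies NADPH (adjusted p 0.0766), to 0.80 for LPCAT3, a phospholipid acyltransferase (adjusted p 0.101). The 8 users of farnesyl and geranylgeranyl diphosphate had a median of -0.37 and the 4 tested genes of sterol export, esterification and LXR one of -0.03. ABCA1 and ABCG1, the sterol exporters controlled by LXR, had no read pair in any library, which allows up to 3 read pairs in each.

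The start of each molecule was compared with the annotation. The most used start lay within 200 bp of the canonical start in 25 members and further away in 6 (IDI1, ACLY, ACACA, FASN, SCD and FADS2). Over all annotated starts the median member had 76.2% of its read pairs within 200 bp of one, against 81.8% for all genes tested. For the 3′ ends the medians were 96.7% for members and 86.7% for all. The members thus lay below the median gene at the 5′ end and above it at the 3′ end.

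The share of pairs at the canonical start moved with the length of the mRNA. In members with a canonical mRNA under 2 kb the median share was 85.6% (8 genes), from 2 to 4 kb 71.2% (11 genes), from 4 to 6 kb 44.4% (9 genes) and from 6 kb upwards 13.5% (3 genes). For all coding genes tested the medians of the same classes were 90.3%, 75.8%, 55.9% and 33.3%. The rank correlation with length was -0.55 over 30 members without FADS2 and -0.45 over 10216 coding genes, a description across genes that share the same libraries. SC5D was an exception among the long members, with 84.3% of its pairs at the canonical start, as was STARD4 with 92.7%.

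**Figure D3:**
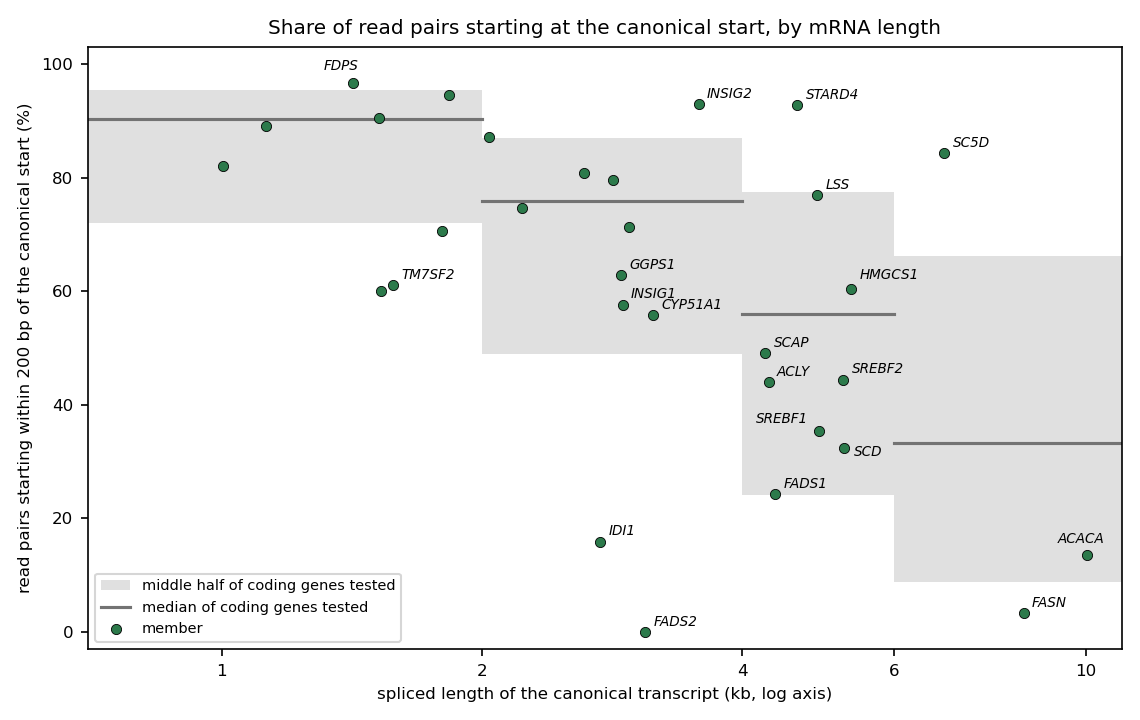
Share of read pairs starting within 200 bp of the canonical start (in percent) against the spliced length of the canonical transcript (kb, log axis), with 1 point per member, the median of all coding genes tested in each length class as a line and their interquartile range as a grey band. The share of members falls from a median of 85.6% under 2 kb to 13.5% from 6 kb upwards, with FASN at 3.34%, and FADS2 at the bottom is a gene read through FEN1 pairs.

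FASN had the lowest share apart from FADS2. Of its 3718 read pairs 3.34% began at the canonical start, which is 18, 78, 16 and 12 pairs in DMSO 1 and 2 and imatinib 1 and 2. In contrast 81.9% began inside coding exons and 99.9% ended at the annotated end, and the most used start, at chr17 position 82079535, lay 18701 bp inside the gene. The read pairs counted for FASN thus lie mostly in the last part of the gene, with a median genomic distance of 2432 bp between their ends. FADS1 with 24.2% of pairs at the canonical start and SCD with 32.4% likewise had most of their starts elsewhere.

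**Figure D4:**
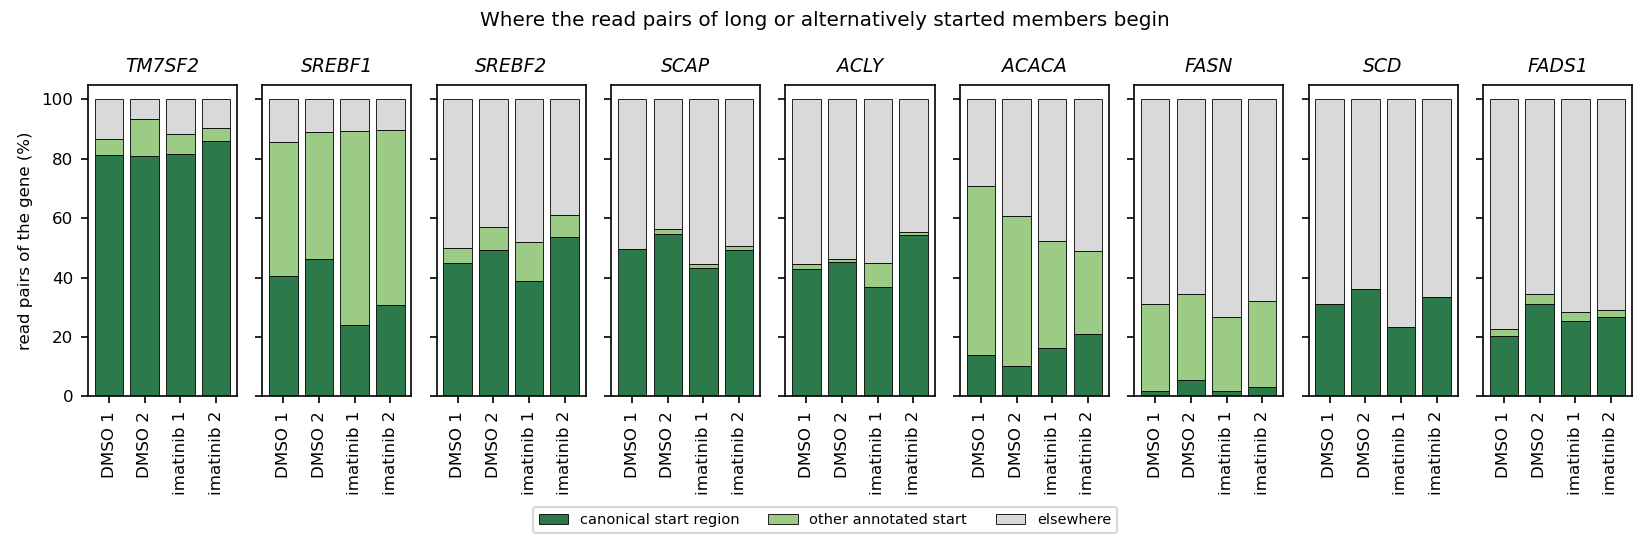
Percent of the read pairs of a gene that began in the canonical start region (dark green), at another annotated start (light green) or elsewhere (grey) in each library, for 9 members. A region joins neighbouring annotated starts and extends 200 bp to each side. TM7SF2 is mostly dark green in every library, SREBF1 and ACACA have a large light green part, and SCAP, ACLY, SCD and FADS1 are mostly grey or evenly split.

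The TM7SF2 pairs that rose began at its known promoter. The canonical start region held 81.1% and 80.9% of the pairs in DMSO and 81.5% and 85.8% in imatinib. The single most used position, 65111872, is the annotated start of the model TM7SF2-201 and held 33.0% of all pairs. It lies downstream of the annotated gene start, 65111845. The single most used 3′ end, 65116226, lies 4 bp before the annotated end and held 80.8% of all pairs, and the poly(A) cluster around it held 98.8% of the clustered pairs. The start and the end used were thus alike in both conditions while the number of pairs differed. Of the pairs from the canonical start region 98.9% ended within 20 bp of 65116226.

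SREBF1 used separate promoters, as this gene is known to do for the forms SREBP-1a and SREBP-1c, which were not assigned to the starts here. The upstream region at 17836986 (chr17, minus strand) held 34 and 71 pairs in DMSO and 36 and 27 in imatinib. As shares of the gene these are 40.5% and 46.1% in DMSO and 24.2% and 30.7% in imatinib. The inner region around 17823604, inside the gene, held 32 and 58 pairs in DMSO and 89 and 47 in imatinib, which is 38.1%, 37.7%, 59.7% and 53.4%. The inner share was higher and the upstream share lower in each imatinib library. The usage test of the start clusters did not call this (unadjusted p 0.185 for 17836986, 0.259 for 17823631 and 0.672 for 17823604). Counting only the pairs from the canonical start, SREBF1 had a log2 fold change of -0.19 in place of 0.41.

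ACACA showed a short form. The region at 37359093 (chr17, minus strand), 47743 bp inside the gene at an annotated start, held 68 and 114 pairs in DMSO and 52 and 11 in imatinib. Of the pairs from annotated starts other than the canonical one, 237 pairs or 89.4% ended within 20 bp of 37328650. This is the end of the annotated model ACACA-232, far before the canonical end. No read pair joined the canonical start to the canonical end of ACACA, whose spliced mRNA of 10013 nt is the longest of the list, and a count of 0 allows up to 3. Restricted to the pairs at the canonical start, the log2 fold change of ACACA was 0.24 in place of -0.50.

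Start clusters were tested for a change of usage within genes that had several. In the 26 members with a start cluster there were 83. Clustered pairs are those that begin in such a cluster, from 7.62% of a member's pairs in SCAP to 89.3% in ACAT2. Shares of start clusters are given as shares of the clustered pairs. By this measure 16 members had a second cluster with at least 10% in a condition (PMVK, FDPS, GGPS1, SQLE, LSS, CYP51A1, NSDHL, EBP, DHCR7, SREBF1, INSIG1, STARD4, ACLY, FASN, SCD and FADS1). Of 64 member clusters tested in 18 genes none was called (edgeR's usage test, adjusted p), and 2 had an unadjusted p under 0.05. Among all 11788 start clusters tested 3.61% were called, and 1414 had an unadjusted p under 0.05. The clusters of most of these genes lay close to each other in the same promoter. FDPS used 155308852, 155308914 and 155308948 on chr1 with shares of 63.2%, 9.99% and 26.9% in DMSO 1 and of 65.2%, 9.12% and 25.7% in imatinib 2, the same pattern in libraries of both conditions.

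Several members used neighbouring positions within 1 promoter. STARD4 used 111512515 (chr5) for 55.0% and 55.3% of the clustered pairs in DMSO and for 42.6% and 47.6% in imatinib, and 111512535 for the rest. NSDHL divided its pairs over 152831032, 152831008 and 152831063 (chrX), with 39.2%, 36.3% and 24.5% over all libraries. INSIG1 had its main start at 155297878 (chr7), with 44.5% and 47.5% in DMSO and 43.6% and 46.5% in imatinib, and its second at 155297850. The clustered pairs named for these 3 genes thus began in narrow groups of positions in every library. Clustered pairs were 54.8% of the STARD4 pairs, 71.2% of the NSDHL pairs and 47.6% of the INSIG1 pairs. Of all INSIG1 pairs 40.8% began away from the annotated start regions.

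The second start of EBP, 48521808 (chrX), held 24.3% and 17.4% in DMSO and 30.3% and 22.5% in imatinib, and the conditions overlapped. The second start of DHCR7, 71448363 (chr11), held 44.6% and 29.7% in DMSO and 19.4% and 34.7% in imatinib and overlapped too. SQLE used its main start for 66.2% and 62.5% in DMSO and for 69.4% and 64.0% in imatinib. In LSS the second start, 46228788 (chr21), held 13.3% of the clustered pairs over all libraries, and in CYP51A1 the second, 92134803 (chr7), held 12.9%. Clustered pairs were 54.6% of the LSS pairs and 37.5% of the CYP51A1 pairs.

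Other members had a second cluster away from the promoter, and its shares are again of the clustered pairs. The GGPS1 cluster at 235330464 (chr1), in an intron, held 17.0% and 11.3% in DMSO and 8.16% and 3.54% in imatinib (unadjusted p 0.161). The ACLY cluster at 41867883 (chr17), in a coding exon, held 20.2% over all libraries (unadjusted p 0.506). In FASN the clusters at 82079535 and 82081783 lay in coding exons and held 46.6% and 20.0% of the clustered pairs over all libraries. In SCD the cluster at 100362151, in a UTR exon, held 57.9% of them, and the promoter cluster at 100347298 held 26.3%. Clustered pairs were only 13.7% of the FASN pairs and 18.1% of the SCD pairs, so these are small parts of all pairs of the genes. The GGPS1 and ACLY clusters named here had a lower share in each imatinib library, and neither passed the test.

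The 2 clusters with the lowest p belonged to FADS1 and PMVK. The FADS1 cluster at 61816835 (chr11) held 8.92% and 12.9% of the clustered pairs in DMSO and 3.53% and 6.59% in imatinib (unadjusted p 0.0172, edgeR adjusted p 0.222). The PMVK cluster at 154936873 (chr1), 154 bp upstream of the annotated start, held 25.0% and 39.1% in DMSO and 18.2% and 6.06% in imatinib (unadjusted p 0.0379, adjusted p 0.355). In both the share was lower in each imatinib library, with 2 to 58 read pairs behind a share.

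Poly(A) sites were read from pairs without an A-rich stretch next to the 3′ end. Where the pairs from a start class are divided by site, every 3′ end within 20 bp of the site was counted. Those counts include ends before an A-rich stretch and can exceed the clustered pairs of the site. In all 31 members there were 91 poly(A) clusters. By single positions over all pairs, the most used 3′ end lay more than 200 bp before the canonical end in 14 members and in a UTR exon in 29, the others being MVD and FADS2. Read by clusters, MVD had 43 pairs at its canonical end and 39 at an intronic site. HMGCS1 ended at 43289396 on chr5, in a UTR exon well before the canonical end, in 93.5% of its clustered pairs. In CYP51A1, MSMO1 and SC5D, with 51.8%, 40.5% and 61.4% of 3′ ends before an A-rich stretch, many pairs were left out of the sites.

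Of the most used sites 21 (67.7%) had AATAAA in the last 40 bases, 7 (22.6%) had ATTAAA only and 3 (9.68%) had neither. Over the 12102 genes with such a site the shares were 66.0%, 16.3% and 17.7%. The site counted for FADS2, 61797240 with AATAAA, rests mainly on pairs that also count for FEN1. The last 30 bases up to the site are printed, in the RNA direction and as DNA letters of hg38, for the 3 members without either hexamer and for members with alternative sites, with the hexamer in capitals.
TM7SF2, chr11:65116197-65116226, plus strand: agagcaaggaaaaaaatgaaaccagtgacc
CYP51A1, chr7:92113586-92113615, minus strand: ggcattcgaagagaatgaagtgtacaaaac
NSDHL, chrX:152869334-152869363, plus strand: gcttcatattataccgatttgttctctgtc
SREBF1 inner site, chr17:17812079-17812108, minus strand: gtacagagaATTAAAaatgaaattatttat
SREBF1 canonical end, chr17:17811350-17811379, minus strand: tcttaaggaaAATAAAcatcttttagaaac
ACACA short form, chr17:37328650-37328679, minus strand: ctctatAATAAAatcctgtatgagatctgg
ACACA canonical end, chr17:37084993-37085022, minus strand: tgttgaAATAAAcctctacatttgtagaag
SCD short site, chr10:100361061-100361090, plus strand: ttcttttaaaattcaaaagtattgaaagcc
SCD canonical end, chr10:100364796-100364825, plus strand: tttgttcatAATAAAagtgaagtgaatctg
LSS inner site, chr21:46189129-46189158, minus strand: ccttAATAAAcagacattgattcccttatc
LSS canonical end, chr21:46188447-46188476, minus strand: ctcagtgtgATTAAAaatcagtcatgaaag

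The site of TM7SF2, the gene that rose, thus had neither hexamer within 40 bases, like the site of NSDHL that took 77.2% of its clustered pairs. In CYP51A1 the choice of the site rested on few pairs, since 92113586 held 149 clustered pairs and 92112150, which has ATTAAA, held 147. Over all pairs from the canonical start of CYP51A1, those before an A-rich stretch included, 63.9% ended at 92112150 and 22.1% at 92113586. The short SCD site also lacked both, while the SCD canonical end and both ACACA sites shown had AATAAA. SREBF1 had ATTAAA at its more used inner site and AATAAA at its canonical end.

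Usage of poly(A) sites was tested in the same way. A second cluster with at least 10% of the clustered pairs in a condition was found in 13 members (ACAT2, MVD, FDFT1, LSS, CYP51A1, MSMO1, NSDHL, SREBF1, SREBF2, INSIG2, STARD4, ACACA and SCD). Of 43 member clusters tested in 17 genes none was called (edgeR's usage test, adjusted p), and 4 had an unadjusted p under 0.05. Among all 11342 poly(A) clusters tested 0.115% were called, and 585 had an unadjusted p under 0.05. The tandem sites of INSIG2 had like shares in all libraries, with 57.5% and 58.7% of pairs at 118110026 (chr2) in DMSO and 59.5% and 61.8% in imatinib.

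The second site of ACAT2, 159778895 (chr6), held 29.5% and 34.8% of the clustered pairs in DMSO and 33.3% and 21.5% in imatinib. That of NSDHL, 152869205 (chrX), held 22.2% and 22.7% in DMSO and 30.1% and 14.4% in imatinib. In both genes the imatinib libraries differed more from each other than the DMSO libraries did. FDFT1 used its main site for 66.6% and 69.5% in DMSO and for 64.6% and 62.7% in imatinib.

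The sites of STARD4, SREBF2, MSMO1 and CYP51A1 rested on fewer pairs. STARD4 had its main site at 111498854 (chr5), with 60.5% and 44.8% in DMSO and 34.9% and 51.6% in imatinib, and its second site, 111500583, ranged from 2.47% to 28.9%. The second site of SREBF2, 41906369 (chr22), held 11.7% over all libraries on 24 pairs, and that of MSMO1, 165343160 (chr4), held 25.0% on 19 pairs. In CYP51A1 the site at 92113586 held 44.3% and 44.8% in DMSO and 28.6% and 42.1% in imatinib (unadjusted p 0.442).

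SCD had 4 poly(A) clusters in a UTR exon, of which 3 held at least 10% of the clustered pairs. The site at 100361090, 3736 bp before the canonical end, held 12.4% and 13.6% of the clustered pairs in DMSO and 3.80% and 6.98% in imatinib (unadjusted p 0.0245, edgeR adjusted p 0.760). The site at the canonical end held 57.4% and 61.5% in DMSO and 77.2% and 66.3% in imatinib. The short site was less used in each imatinib library, which rested on 6 read pairs in each. Of all pairs from the SCD promoter, those before an A-rich stretch included, 34.0% ended at the short site and 30.1% at the canonical end. Of the pairs that began elsewhere 75.7% ended at the canonical end, at a median distance of 1486 bp. The most used of these starts, 100362151, lies downstream of the short site, so molecules from there cannot end at it.

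The shares of the ACACA sites were separated between conditions. The short-form site at 37328650 held 73.8% and 62.1% of the clustered pairs in DMSO and 42.0% and 34.5% in imatinib. The site at the canonical end held 14.3% and 24.9% in DMSO and 45.8% and 48.3% in imatinib. The groups did not overlap for either site, yet neither passed the usage test (unadjusted p 0.223 and 0.0566), and imatinib library 2 had 10 and 14 read pairs at them. The intronic site at 37406209 held between 9.92% and 11.8% in every library. The short-form site and the canonical end were also reached from different starts, with pairs before an A-rich stretch included. Of the pairs within 20 bp of the canonical end, 124 began at no annotated start, at a median distance of 1418 bp. Another 12 began at annotated starts other than the canonical one. At the short-form site these counts were 6 and 237.

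**Figure D5:**
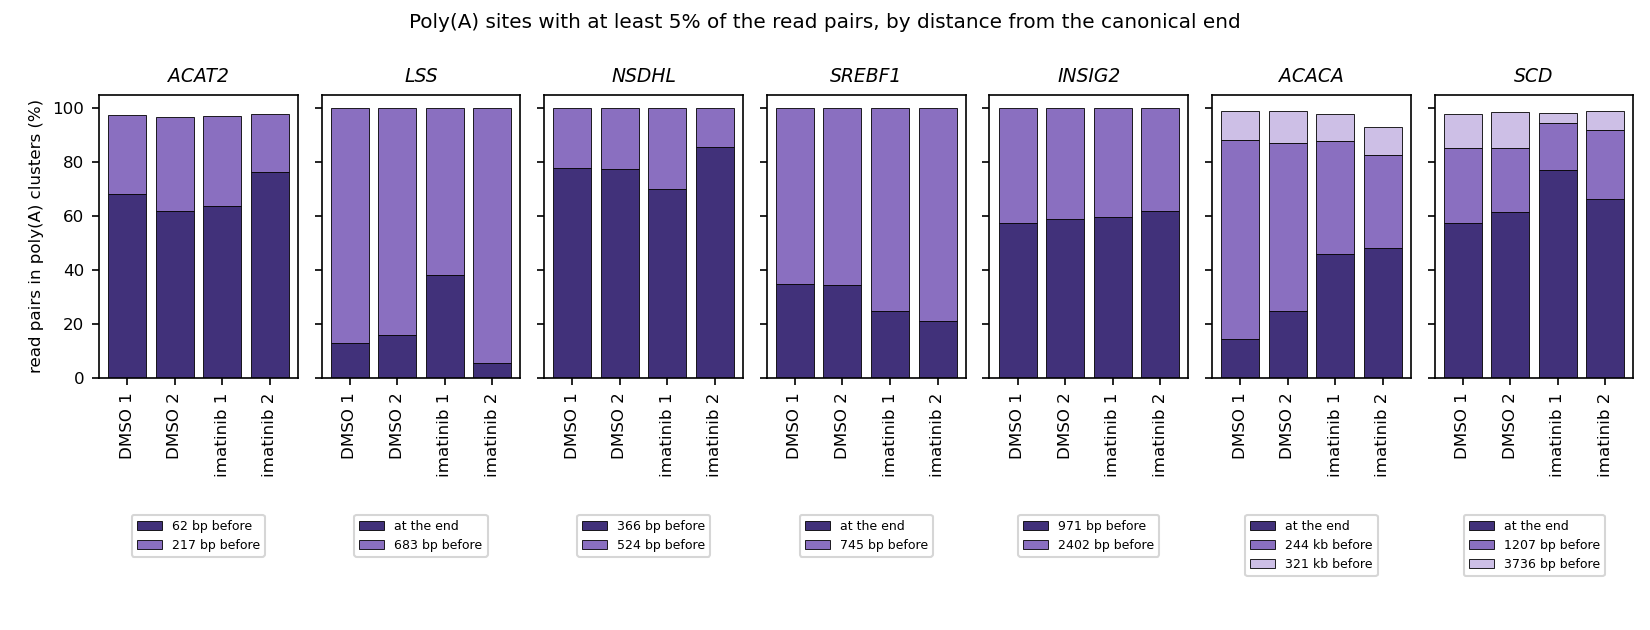
Shares of poly(A) sites with at least 5% of the clustered read pairs (in percent) in each library, for 7 members, coloured by the distance of the site before the canonical end. The INSIG2 bars are alike in all 4 libraries, the LSS bars differ most between the imatinib libraries (38.1% and 5.48% at the canonical end), and the ACACA bars show the canonical end at 14.3% and 24.9% in DMSO and 45.8% and 48.3% in imatinib.

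In LSS the canonical end held 12.9% and 16.0% in DMSO and 38.1% and 5.48% in imatinib, so that the imatinib libraries lay on both sides of DMSO. SREBF1 used its inner site at 17812079 for 65.3% and 65.6% in DMSO and for 75.0% and 79.1% in imatinib (unadjusted p 0.603). Pairs from the upstream and from the other annotated starts of SREBF1 used that site alike, 66.7% and 68.4%. MVD, which decarboxylates mevalonate diphosphate, had 77 pairs from the promoter, those before an A-rich stretch included. Of these 55 ended within 20 bp of an intronic site at 88662100 (chr16), at a median distance of 993 bp, and 20 reached the canonical end. The log2 fold change of 0.26 for MVD thus combines pairs to both ends.

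The joined ends gave 158 TIFs (a start cluster linked to a poly(A) cluster by at least 4 read pairs) in the member genes, of which 81 were tested. A TIF was called where the adjusted p was under 0.05 and the fold change exceeded 1.5 on the log2 scale, and 9.83% of the 16020 TIFs tested passed this. Among the members 1 was called higher and none lower. It was the TIF of TM7SF2 from 65111872 to 65116226, with 22 and 38 read pairs in DMSO and 118 and 63 in imatinib. As CPM these are 8.71 and 10.6 in DMSO and 43.4 and 42.4 in imatinib (log2 fold change 2.14, SE 0.388, edgeR adjusted p 0.0107). DESeq2 also called this TIF and no other of the members, while without DMSO library 1 no member TIF was called.

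The next TIFs in order of p did not pass. The FADS1 TIF from 61817161 to 61799631, which starts 36 bp from an annotated start, had 18 and 43 read pairs in DMSO and 76 and 37 in imatinib (log2 fold change 1.45, edgeR adjusted p 0.0555). The SREBF1 TIF from the inner start 17823631 to 17812079 had 6 and 8 in DMSO and 14 and 14 in imatinib (log2 fold change 1.58, adjusted p 0.101). The IDI1 TIF that ended at 1040903, a site upstream of the main one, had 53 and 64 in DMSO and 22 and 13 in imatinib (log2 fold change -1.21, adjusted p 0.0914). Each of these had separated libraries in CPM and few read pairs.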

How the data were processed

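The 4 TIF-Seq2 tables of K562 cells, 2 after DMSO and 2 after imatinib, hold raw counts of read pairs per pair of end positions. The authors deposited these counts after trimming with cutadapt, aligning both ends to hg38 with STAR (2.5.3a per the submitters' processing notes), keeping unique pairs and removing duplicates by molecular identifier, without normalization or a filter. The 3′T-fill samples and the PacBio models were not analysed here, and the labels do not say whether the replicates are separate cultures (the methods call them biological replicates).

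Read pairs were summed per Gencode v44 gene by the stated rule, for every gene, and tested with edgeR 4.0.16 (R 4.3.3; quasi-likelihood, robust, TMM factors on the deposited totals, filterByExpr). From 97.5% to 98.5% of pairs fell in a gene. CPM values use the TMM-scaled totals, and each SE is in log2 units. They are counts of molecule ends and were not compared between genes. DESeq2 1.42.0 was an alternative. Start and poly(A) tags with at least 1 power-law normalized count (exponent 1.25) in at least 2 libraries were joined within 10 bp, 3′ ends with 7 or more A in the next 10 nt were left out, and usage within genes was tested with edgeR's diffSpliceDGE. TIFs span 300 bp to 2 Mb. Canonical means the Ensembl canonical transcript of the annotation. Motifs and sequences come from hg38, and some of the listed genes and sequences are not reported here.

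All members are accounted for. Members called, and the highest and lowest of each role group, are given in every library. Sites are named for genes with a called site or a second site of at least 10% of the clustered pairs (SQLE and FDFT1 by shares only). Other values were named after they were seen. The members, the lists and these rules were chosen with earlier results of these data known. On simulated counts for 12052 genes the gene test recovered 78.1% of changes of log2 2 and 8.16% of changes of log2 1. Only 96 and 98 genes were changed there and all genes had 1 common dispersion. In the data 1800 genes were called, so these shares do not give the power of the test in the data. Replicates differed by more than counting error (chi-square per degree of freedom 10.0 in DMSO and 16.7 in imatinib), so none was a copy. Same-numbered libraries did not deviate together (correlation -0.25). Alternatives were the normalization, the low-count filter, the replicate block, each library left out, and the counting rules.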

Additional observations from a re-analysis of the deposited data

How the results depend on the processing

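TM7SF2 passed the test in 13 of 13 alternatives (log2 fold change 1.86 to 2.07, highest edgeR or DESeq2 adjusted p 0.0164). The median of the members lay between -0.29 and -0.07. Of 396 values of single members under alternatives, 380 kept their direction or side within the spread, 9 moved and 7 newly passed, and 21 values of uncalled members changed sign. Members called lower were 1 with DESeq2 and 1 with no filter on low counts (SCD in both), and from 0 to 2 with each library left out (GGPS1 and ACACA without imatinib library 1, INSIG1 and SCD without imatinib library 2), where the lone library was assumed to vary like the other group. Members called higher were from 1 to 2 (SREBF2 added without imatinib library 2). All genes called, 1800 as reported with 1054 higher and 746 lower, were 2736 with no filter, 1426 with DESeq2 (692 higher, 734 lower), and from 820 (without DMSO library 2) to 3955 (without imatinib library 2) with a library left out. Member TIFs called were 3 with no filter, 2 with tags of 2 read pairs in 2 libraries, and from 0 (without DMSO library 1) to 4 (without imatinib library 1). HSD17B7, GGPS1, CYP51A1, EBP and FADS2 gave no value under at least 1 counting rule. Member sites with changed usage were 0 in every alternative, at sizes where simulated usage changes of log2 2 were recovered in 20.6% of start and 7.02% of poly(A) clusters. The shallowest library held 2263121 read pairs.

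With the replicate number as a block, TM7SF2 remained the 1 member called, all genes called were 1148, and the member median was -0.22. Start clusters called went from 425 to 149 and poly(A) clusters from 13 to 0. Since same-numbered libraries correlated at -0.25, a crossed pairing was added after seeing the data, and it called 3723 genes, 3 members lower (INSIG1, SCD and FASN) and 2 member TIFs. The numbers are not known to mark a shared culture, so neither block is preferred.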
